A study of Rattus norvegicus with 23 samples.

Results

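Semaphorins are secreted or membrane-bound proteins that steer growing axons and trim synapses. The secreted class 3 semaphorins bind mostly to neuropilins, which hold the ligand, while plexins of the A type carry the signal into the cell and change the actin skeleton and adhesion. In mice, plexin-A2 and plexin-A4 are known for sorting the mossy fibres of the dentate gyrus into their layer of CA3, and neuropilin-2 with plexin-A3 for pruning them. The genes described here were 3 class 3 ligands (Sema3a, Sema3c and Sema3e), both neuropilins (Nrp1 and Nrp2) and 2 plexins (Plxna2 and Plxna4). They were taken as every probe set of the array whose annotated gene symbol was one of these 7, which gave 12 of 31042 probe sets. The 7 genes were selected on their measured log2 values in all 3 groups of these same arrays, so their group differences are given as a description, with no p-value for a single gene. Whether the fit called them, and how often across settings, describes that fit and is no independent support.

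CA3, a field of the hippocampus, was microdissected from male Long-Evans rats, and the RNA of each animal went onto its own microarray, on which a probe set is a group of short probes for 1 transcript. Aged impaired rats were 24 to 26 months old and learned a hidden platform in a water maze worse than young rats (n = 8). Aged unimpaired rats had the same age and learned no worse than the young did (n = 6). Young rats were 6 months old (n = 9). The labels name no treatment or altered gene, all rats were housed singly, and the groups differ in age, in tested learning, or in both. Values are log2 expression values, in which a difference of 1 is a doubling of signal, and a probe set was tested where its log2 value reached 4 on at least 6 arrays. "Called" means an adjusted p of at most 0.05 in a limma fit over all 14647 tested probe sets, and errors of differences are standard errors (SE) of that fit.

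Of the 12 probe sets, 9 passed the filter and covered 6 of the 7 genes. The single probe set of Sema3a, which makes growth cones collapse, lay at the lowest value of the scale, 2.19, on all 23 arrays. So did 1 of 2 probe sets of Nrp2 (1369824_at) and 1 of 3 of Plxna2 (1384355_at). A probe set on this floor gives no measure of its gene, and Nrp2 and Plxna2 were measured by their other probe sets. Sema3a is therefore without a measurement in all 3 groups.

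The tissue carried most of the CA3 markers its label calls for. Of 7 CA3 markers, 6 were tested, and the kainate receptor subunit Grik4 averaged 8.97 in aged impaired rats, 9.03 in aged unimpaired rats and 9.15 in young rats. Iyd lay near the floor. Markers of the neighbouring fields were measured as well, among them Wfs1 of CA1 and Prox1 of the dentate gyrus, while Tdo2 of the dentate gyrus lay on the floor and Dsp near it. Aged impaired 2 stood apart from its group, with the highest mean log2 level of 5 CA1 markers (8.65) and the lowest of 6 CA3 markers (10.39) of all animals. Young 4 had the lowest CA1 marker level of all animals, 5.84. Results that change without these 2 arrays are given both ways.

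The stretches before the start of Sema3c and Nrp1 are shown because these 2 of the 3 called genes are the ones that the RefSeq promoter table (build GRCr8) holds. They are the 250 bases before the annotated start, 5′ to 3′ on the gene's strand. The Sema3c stretch is chr4:18699628-18699877 on the minus strand and the Nrp1 stretch chr19:73256307-73256556 on the plus strand. Capitals mark CANNTG, the E-box, searched on both strands.
Sema3c: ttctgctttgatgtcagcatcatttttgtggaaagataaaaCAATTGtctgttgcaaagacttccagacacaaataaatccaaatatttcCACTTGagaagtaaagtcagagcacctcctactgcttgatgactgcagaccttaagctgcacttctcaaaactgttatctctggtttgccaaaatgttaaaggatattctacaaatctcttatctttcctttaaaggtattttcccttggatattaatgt
Nrp1: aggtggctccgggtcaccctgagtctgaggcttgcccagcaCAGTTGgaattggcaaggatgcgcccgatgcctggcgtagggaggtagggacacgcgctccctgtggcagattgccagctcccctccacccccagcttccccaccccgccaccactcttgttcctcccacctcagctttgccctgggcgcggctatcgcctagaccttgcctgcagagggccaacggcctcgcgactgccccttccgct
The pair differs in base composition, with 35.2% G and C for Sema3c and 66.4% for Nrp1, against a median of 51.2% over 33469 such stretches. Sema3c held 2 E-boxes and Nrp1 held 1, and 65.5% of all stretches held at least 1. The letters CCAAT were in the Nrp1 stretch 1 time, on the opposite strand, and 34.0% of all stretches held them. The GC box (GGGCGG), the half-site of the cAMP response element (TGACG) and the TATA box (TATAAA) were in neither on either strand. All stretches held them in 30.5%, 18.2% and 12.9% of cases. No motif searched overlapped an E-box in these stretches.

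Among the ligands, Sema3c was lower in both aged groups. Sema3c is a secreted ligand that uses neuropilin-1 and neuropilin-2 and is known for guiding cortical axons and cells of the heart outflow tract. Its log2 value had a lowest, median and highest of 6.34, 6.99 and 7.09 in aged impaired rats. The same 3 values were 6.67, 7.21 and 7.48 in aged unimpaired rats and 7.09, 7.79 and 8.44 in young rats. Of the 8 aged impaired rats, 7 lay below every young rat, and the eighth was level with the lowest young rat. Of the 6 aged unimpaired rats, 1 lay below every young rat and 6 below the young median. The means ran in the order aged impaired 6.90 ± 0.26 (SD, n = 8), aged unimpaired 7.18 ± 0.27 (SD, n = 6) and young 7.85 ± 0.39 (SD, n = 9).

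The log2 difference of Sema3c was -0.95 ± 0.15 SE in aged impaired against young rats, a level 1.93-fold lower. In aged unimpaired against young rats it was -0.68 ± 0.16 SE, a level 1.60-fold lower. Between aged impaired and aged unimpaired rats it was -0.27 ± 0.17 SE and was not called. All 8 aged impaired rats lay below the aged unimpaired median, and 5 of 6 aged unimpaired rats lay above every aged impaired rat. The other, aged unimpaired 7, lay at 6.67, below 7 of the 8 aged impaired rats. Both aged groups were set against the same 9 young rats. In tissue RNA, fewer cells of a type and less RNA per cell cannot be told apart.

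The call of Sema3c in aged impaired rats held in 11 of 11 alternative fits and in 23 of 23 fits that left out 1 animal. Its call in aged unimpaired rats held in 7 of 11 and 17 of 23. It ended without aged unimpaired 1, 6, 7 or 8 or young 4 or 9, with differences between -0.68 and -0.57, and at -0.64 without aged impaired 2 and young 4.

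**Figure D1:**
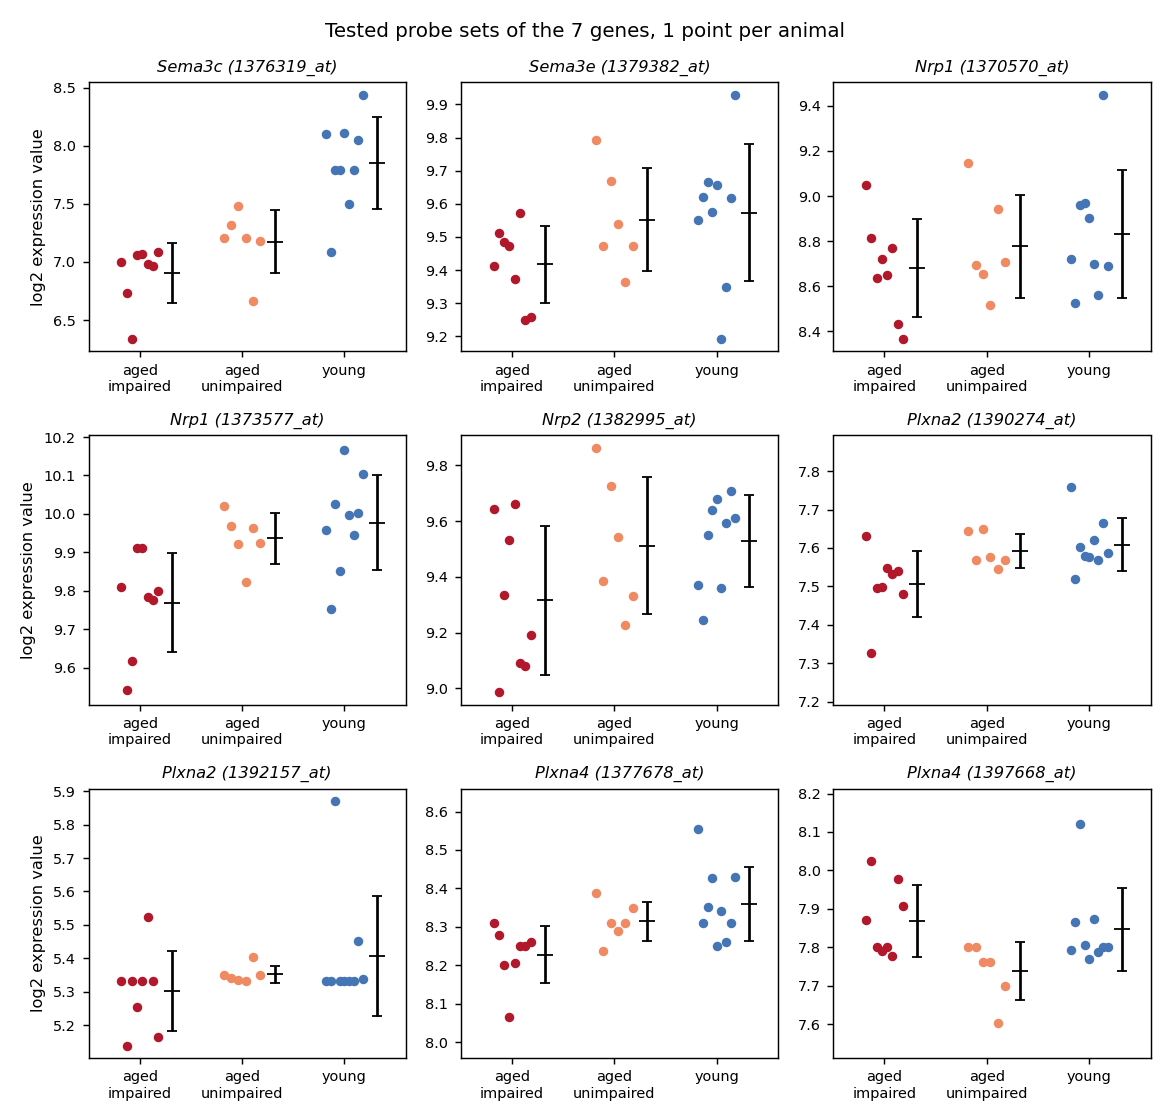
Log2 expression value (vertical axis) of each animal for the 9 tested probe sets, in aged impaired, aged unimpaired and young rats from left to right. Points are animals and the black marks are group means with their SD, and the vertical scale differs between panels. Sema3c shows the widest gap, with 7 of 8 aged impaired rats below every young rat.

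Sema3e, a secreted ligand that binds plexin-D1 without a neuropilin, was not called in any comparison. Its lowest, median and highest log2 values were 9.25, 9.44 and 9.57 in aged impaired rats, 9.36, 9.51 and 9.79 in aged unimpaired rats and 9.19, 9.62 and 9.93 in young rats. All 3 ranges overlapped, and 8 of 8 aged impaired and 4 of 6 aged unimpaired rats lay below the young median. The differences were -0.16 ± 0.08 SE in aged impaired and -0.02 ± 0.09 SE in aged unimpaired rats against young, and neither was called. Its receptor gene Plxnd1 lay near the floor in all 3 groups, with means of 2.28, 2.25 and 2.25.

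Among the neuropilins, Nrp1 was lower in aged impaired rats by 1 of its 2 probe sets. Nrp1 encodes the ligand-binding receptor of Sema3a and Sema3c and also binds vascular growth factors. On probe set 1373577_at the lowest, median and highest log2 values were 9.54, 9.79 and 9.91 in aged impaired rats, 9.82, 9.94 and 10.02 in aged unimpaired rats and 9.75, 9.997 and 10.17 in young rats. The groups overlapped, but 8 of 8 aged impaired rats lay below the young median, 2 of 8 below every young rat and 6 of 8 below every aged unimpaired rat. The difference was -0.21 ± 0.06 SE against young rats, which was called, and -0.17 ± 0.06 SE against aged unimpaired rats, which was not. Aged unimpaired rats stood at -0.04 ± 0.06 SE against young.

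The second Nrp1 probe set, 1370570_at, gave -0.15 ± 0.12 SE in aged impaired against young rats and was not called. Its ranges were 8.37 to 9.05 in aged impaired, 8.52 to 9.15 in aged unimpaired and 8.53 to 9.45 in young rats, which overlapped widely. The call of the first probe set held in 23 of 23 fits that left out 1 animal. It ended with quantile normalization (-0.19), with the gap between control rows as a covariate (-0.20) and without aged impaired 2 and young 4 (-0.15). This control-row gap is the log2 value of the 5′ control probe set of Gapdh minus that of the middle one. Whether it marks RNA quality was not tested.

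Nrp2, the receptor of Sema3f that also binds Sema3c, was spread more widely in both aged groups than in young rats, with an SD of 0.27 for aged impaired rats, 0.25 for aged unimpaired rats and 0.16 for young rats, a difference in spread that was not tested. The tested probe set (1382995_at) had a lowest, median and highest log2 value of 8.99, 9.26 and 9.66 in aged impaired rats, 9.23, 9.46 and 9.86 in aged unimpaired rats and 9.25, 9.59 and 9.71 in young rats. Of 8 aged impaired rats 4 lay below every young rat and 0 above. Of 6 aged unimpaired rats 1 lay below every young rat and 2 above. The difference was -0.21 ± 0.11 SE against young and -0.20 ± 0.12 SE against aged unimpaired rats, and neither was called. Sema3f, its other ligand, lay on the floor on both of its probe sets.

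The plexins among the 7 genes had small differences. Plxna4, a signalling receptor for Sema3a and for class 6 semaphorins, was called on probe set 1377678_at. The lowest, median and highest log2 values there were 8.07, 8.25 and 8.31 in aged impaired rats, 8.24, 8.31 and 8.39 in aged unimpaired rats and 8.25, 8.34 and 8.55 in young rats. Of 8 aged impaired rats, 4 lay below every young rat and 8 below the young median. The difference was -0.13 ± 0.04 SE, a level 1.10-fold lower.

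The other Plxna4 probe set, 1397668_at, gave 0.02 ± 0.05 SE in the same comparison. It stood at -0.11 ± 0.05 SE in aged unimpaired against young rats and at 0.13 ± 0.05 SE in aged impaired against aged unimpaired rats, none of them called. On this probe set 4 of 6 aged unimpaired rats lay below every young rat, and 4 of 8 aged impaired rats lay above every aged unimpaired rat. Both probe sets had repeated values, 8.31 on 5 of 23 arrays for 1377678_at and 7.80 on 6 of 23 for 1397668_at. The lower value of Plxna4 in aged impaired rats rests on 1 of 2 probe sets. That call also ended in 11 of 23 fits that left out 1 animal. These left out aged impaired 2 to 8 one at a time, and young 2, 3, 8 or 9, with differences of -0.14 to -0.11. The call ended in 6 of 11 alternative fits as well, among them quantile normalization (-0.11), centring of arrays (-0.12) and the control-row gap (-0.14).

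Plxna2, a receptor for class 3 and class 6 semaphorins, was not called. Its probe set 1390274_at had a lowest, median and highest log2 value of 7.33, 7.52 and 7.63 in aged impaired rats, 7.54, 7.57 and 7.65 in aged unimpaired rats and 7.52, 7.59 and 7.76 in young rats. Of 8 aged impaired rats, 4 lay below every young rat and 6 below every aged unimpaired rat. The difference was -0.10 ± 0.04 SE against young and -0.09 ± 0.04 SE against aged unimpaired rats, and the first was called only in the fit without aged impaired 1. Its probe set 1392157_at, which had the same value of 5.33 on 11 of 23 arrays, gave -0.11 ± 0.06 SE against young.

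In aged impaired against young rats, 3 of the 9 tested probe sets were called, all lower, while 9.76% of all tested probe sets were called and 5.88% were called lower. The median log2 difference was -0.15 over the 9 and -0.02 over all tested probe sets, and 8 of the 9 lay below 0. In aged unimpaired against young rats 1 of 9 was called, that of Sema3c, against 2.06% of all. The median was -0.04 over the 9 and 0.00 over all. In aged impaired against aged unimpaired rats limma called 0 of 9, against 0.778% of all, and 3 of 9 had an unadjusted p of at most 0.05. Of all 14647 tested probe sets, 2221 had an unadjusted p that low in this comparison. The median there was -0.10 over the 9 and -0.02 over all. The groups overlapped for all 9 in each comparison, while they did not overlap for 0.853%, 0.935% and 0.287% of all tested probe sets in the same order. These counts share the contrasts with which the genes were chosen, and nothing is read from them.

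**Figure D2:**
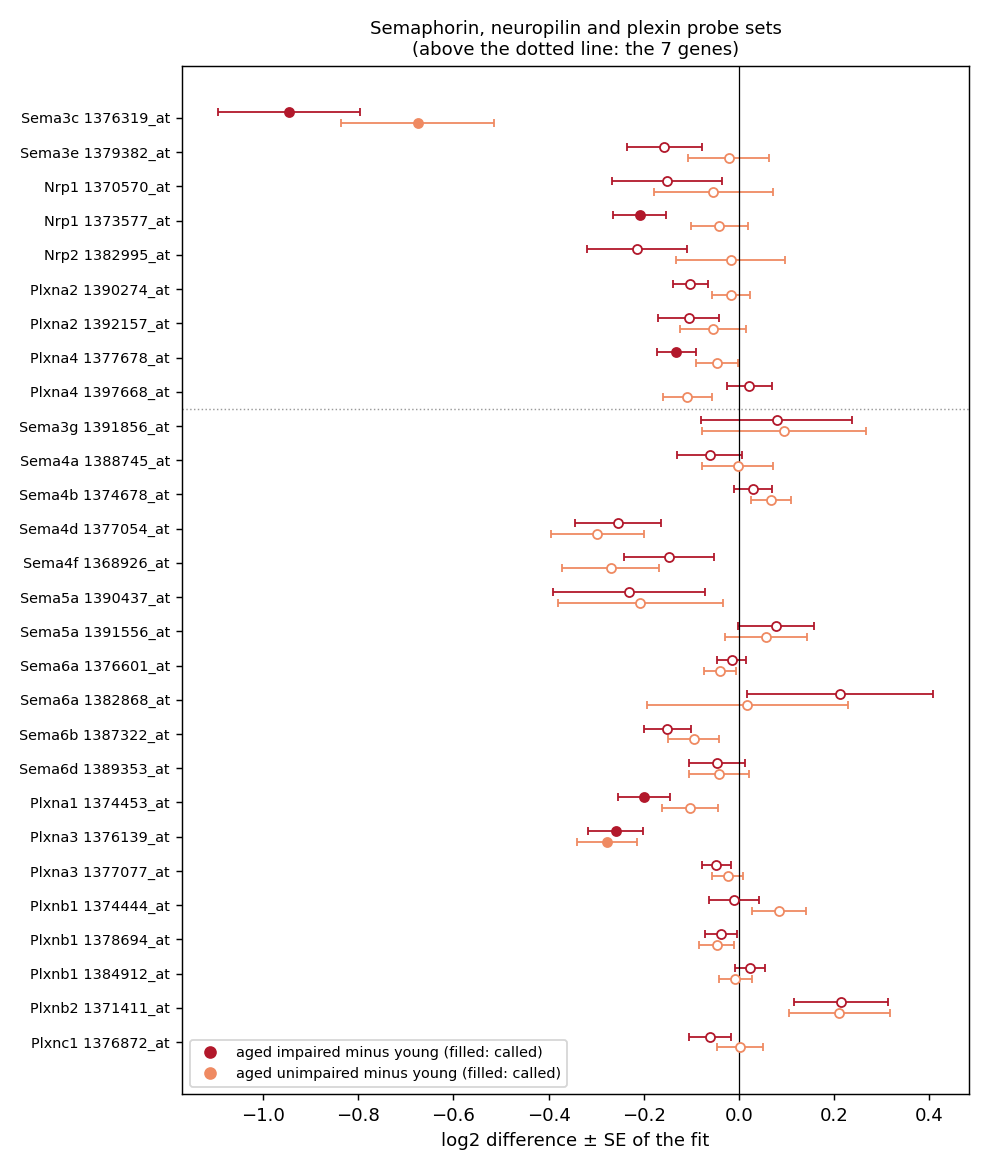
Log2 difference with its SE (horizontal axis) of each tested semaphorin, neuropilin and plexin probe set, in aged impaired minus young rats (dark red) and aged unimpaired minus young rats (orange). The 7 genes stand above the dotted line and filled points are called. Sema3c stands at -0.95 and -0.68, and Plxna3 at -0.26 and -0.28.

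The rest of the family and its signalling partners were taken from lists of the pathway's known genes, written with earlier results of these arrays known, so their calls are no independent support. Of 66 genes, 61 had a probe set and 47 were tested, by 66 probe sets. In aged impaired against young rats 4 of the 66 probe sets fell and 0 rose, against 5.88% called lower and 3.88% called higher of all. The median log2 difference was -0.04 on the lists and -0.02 over all tested probe sets. In aged unimpaired against young rats 2 fell and 0 rose, against 0.696% called lower and 1.37% called higher of all, with a median of -0.03. In aged impaired against aged unimpaired rats limma called 0 of 66, against 0.778% of all. An unadjusted p of at most 0.05 was found for 6 of the 66 and for 2221 of all 14647 tested probe sets.

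Both other plexins of the A type fell in aged impaired rats. Plxna3, the signalling partner of Nrp2 for Sema3f, had a lowest, median and highest log2 value of 6.35, 6.48 and 6.62 in aged impaired rats on probe set 1376139_at. The same values were 6.31, 6.45 and 6.63 in aged unimpaired rats and 6.61, 6.71 and 6.94 in young rats. Below every young rat lay 6 of 8 aged impaired and 4 of 6 aged unimpaired rats, so that Plxna3 was about as low in the one aged group as in the other. The difference was -0.26 ± 0.06 SE in aged impaired rats (limma adjusted p = 0.00852) and -0.28 ± 0.06 SE in aged unimpaired rats (adjusted p = 0.0224), both against young. Between the aged groups it was 0.02 ± 0.06 SE (adjusted p = 0.94).

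The other Plxna3 probe set, 1377077_at, stood at -0.05 ± 0.03 SE and -0.02 ± 0.03 SE against young (adjusted p = 0.323 and 0.767 by limma). It had the same value of 6.25 on most arrays of each group, so its equal group medians say little about a difference. The call of 1376139_at in aged impaired rats held in 11 of 11 alternative fits and 23 of 23 fits without 1 animal. That in aged unimpaired rats ended without aged unimpaired 1, 4 or 8, at -0.26 to -0.24, and in 3 of 11 alternatives.

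Plxna1, a signalling subunit for Sema3a, had a lowest, median and highest log2 value of 8.99, 9.21 and 9.36 in aged impaired rats, 9.15, 9.30 and 9.40 in aged unimpaired rats and 9.13, 9.39 and 9.53 in young rats. All 8 aged impaired rats lay below the young median, though 1 alone lay below every young rat. The difference was -0.20 ± 0.05 SE in aged impaired (limma adjusted p = 0.0235) and -0.10 ± 0.06 SE in aged unimpaired rats (adjusted p = 0.394), both against young. The call ended without aged impaired 2 (-0.17), without aged impaired 2 and young 4 (-0.15), without a filter and with the replicate number as a block. Its other 2 probe sets lay on the floor.

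The 11 tested probe sets of 9 other semaphorin genes had no call in any of the 3 comparisons. Sema6a and Sema6b, membrane-bound ligands of plexin-A2 and plexin-A4, are named here for that role. Sema6b averaged 8.40 ± 0.11 (SD, n = 8) in aged impaired, 8.46 ± 0.08 (SD, n = 6) in aged unimpaired and 8.55 ± 0.10 (SD, n = 9) in young rats. Its difference in aged impaired against young rats was -0.15 ± 0.05 SE (limma adjusted p = 0.0574). Sema6a had 2 tested probe sets, at -0.02 ± 0.03 SE and 0.21 ± 0.19 SE. Of 8 tested probe sets of the other plexins, the 2 that fell were those of Plxna1 and Plxna3, and the other 6 had no call.

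Among the signalling partners 3 genes fell in an aged group. Crmp1, a cytosolic collapsin response mediator that relays Sema3a to microtubules, was lower in aged impaired rats (10.53 ± 0.09 SD, n = 8) than in young rats (10.68 ± 0.07 SD, n = 9), with 5 of 8 below every young rat. The difference was -0.15 ± 0.04 SE (limma adjusted p = 0.0275). The call ended without aged impaired 2 or 4 or young 8, at -0.14 to -0.13. It also ended with the control-row gap as a covariate (-0.14) and without aged impaired 2 and young 4 (-0.13). Pip5k1c, which makes the membrane lipid PIP2 at adhesions, stood at -0.14 ± 0.04 SE in aged impaired against young rats (adjusted p = 0.028 by limma). Its call ended without aged impaired 2 or young 7 or 8, at -0.13 to -0.12. The call also ended in 7 of 11 alternative fits, among them the control-row gap (-0.11) and the fit without aged impaired 2 and young 4 (-0.12). Fyn, a kinase recruited by plexins of the A type, fell in aged unimpaired rats on probe set 1369103_at (-0.25 ± 0.05 SE, limma adjusted p = 0.00791), with 5 of 6 below every young rat. That call ended with the replicate number as a block (-0.24). In aged impaired rats it stood at -0.11 ± 0.04 SE (adjusted p = 0.102), and its other probe set at -0.05 ± 0.04 SE and 0.00 ± 0.04 SE. Co-receptors had no call among 7 tested probe sets.

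**Figure D3:**
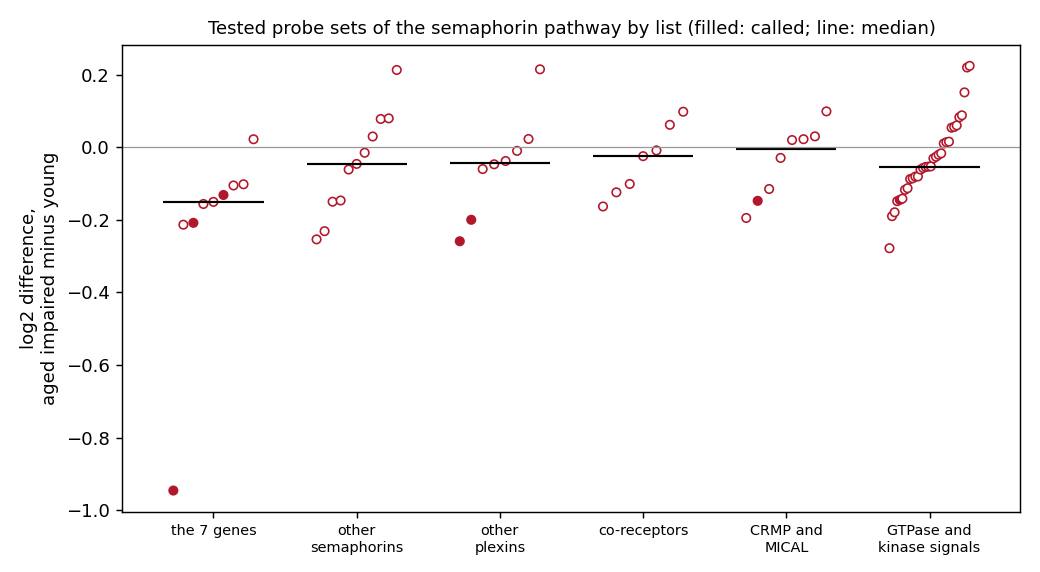
Log2 difference in aged impaired minus young rats (vertical axis) of each tested probe set of the 7 genes and of the 5 lists of family members and signalling partners. Each point is a probe set, filled where called, and the lines are list medians. The called probe sets outside the 7 genes are Plxna1, Plxna3, Crmp1 and Pip5k1c, all below 0.

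Markers of cell types and fields moved between the same groups. Of 11 tested probe sets of CA3 markers, 6 fell and 0 rose in aged impaired against young rats, with a median of -0.24. The mean log2 level of the list ran between 10.39 and 10.89 in aged impaired, 10.63 and 10.85 in aged unimpaired and 10.77 and 11.07 in young rats. Of 6 tested CA1 probe sets 0 were called, with a median of 0.40 and ranges of the list of 6.81 to 8.65, 7.27 to 7.67 and 5.84 to 7.99 in the same order of groups. All 7 tested probe sets of microglial markers rose, and the list ran between 7.89 and 8.45 in aged impaired, 7.80 and 8.25 in aged unimpaired and 7.18 and 7.57 in young rats, although Cx3cr1 and Itgam lay below the filter. Of neuronal markers 3 of 8 tested probe sets fell, and of astrocyte markers 3 of 12 rose. Of all tested probe sets, 5.88% were called lower and 3.88% higher in aged impaired against young rats. In aged unimpaired against young rats 1 of 11 CA3 and 2 of 8 neuronal probe sets fell, and 6 of 7 microglial and 2 of 12 astrocyte probe sets rose. The shares of all there were 0.696% called lower and 1.37% called higher. The part of these shifts in the differences of the semaphorin, neuropilin and plexin genes was not tested.

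Within groups, Nrp2 followed the CA3 markers from animal to animal. Each of the 9 tested probe sets was set against the mean level of each of 13 marker lists, as deviations from the group means, with animals permuted within groups. The 117 relations were computed after the values were seen, for genes chosen on values of these same arrays. Their p-values are adjusted over all 117, describe these animals and are no independent support. The relation of Nrp2 to the CA3 markers was the only one of the 117 whose r passed, with r = 0.68 (n = 23, permutation p = 0.0002, adjusted p = 0.0234) and rho = 0.70 (permutation p = 0.0004, adjusted p = 0.0468). Within the groups r was 0.75 for aged impaired rats, 0.46 for aged unimpaired rats and 0.77 for young rats. It was 0.58 without aged impaired 1 and 2, the 2 animals whose CA3 level deviated most from the group mean. No p-value was computed without them.

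The next relations by adjusted p did not pass. Sema3c had r = -0.55 with the microglial markers (permutation p = 0.00407, adjusted p = 0.119) and rho = -0.45 (adjusted p = 0.381), with r of -0.52, -0.36 and -0.78 in aged impaired, aged unimpaired and young rats and -0.65 without 2 animals. Nrp1 (1373577_at) had r = -0.64 with the astrocyte markers (permutation p = 0.00239, adjusted p = 0.119) and rho = -0.46 (adjusted p = 0.398), with r of -0.47 without 2 animals. Plxna2 (1390274_at) had r = 0.69 with the CA3 markers (permutation p = 0.00354, adjusted p = 0.119) and rho = 0.43 (adjusted p = 0.398). Its r was 0.36 without aged impaired 1 and 2, so it rests on those animals. With the CA3 markers, the 2 Nrp1 probe sets had r = 0.56 (1373577_at, adjusted permutation p = 0.177) and 0.47 (1370570_at, adjusted permutation p = 0.332), and Sema3c had 0.41 (adjusted permutation p = 0.365). Plxna4 (1397668_at) went the other way there, with r = -0.43 (adjusted permutation p = 0.365). With the CA1 markers, Nrp1 (1373577_at) had r = -0.62 and Nrp2 had r = -0.52 (adjusted permutation p = 0.158 for each). Plxna4 (1397668_at) had r = 0.56 with the dentate gyrus markers (adjusted permutation p = 0.158). Nrp1 (1373577_at) had r = -0.54 with the interneuron markers (adjusted permutation p = 0.174).

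**Figure D4:**
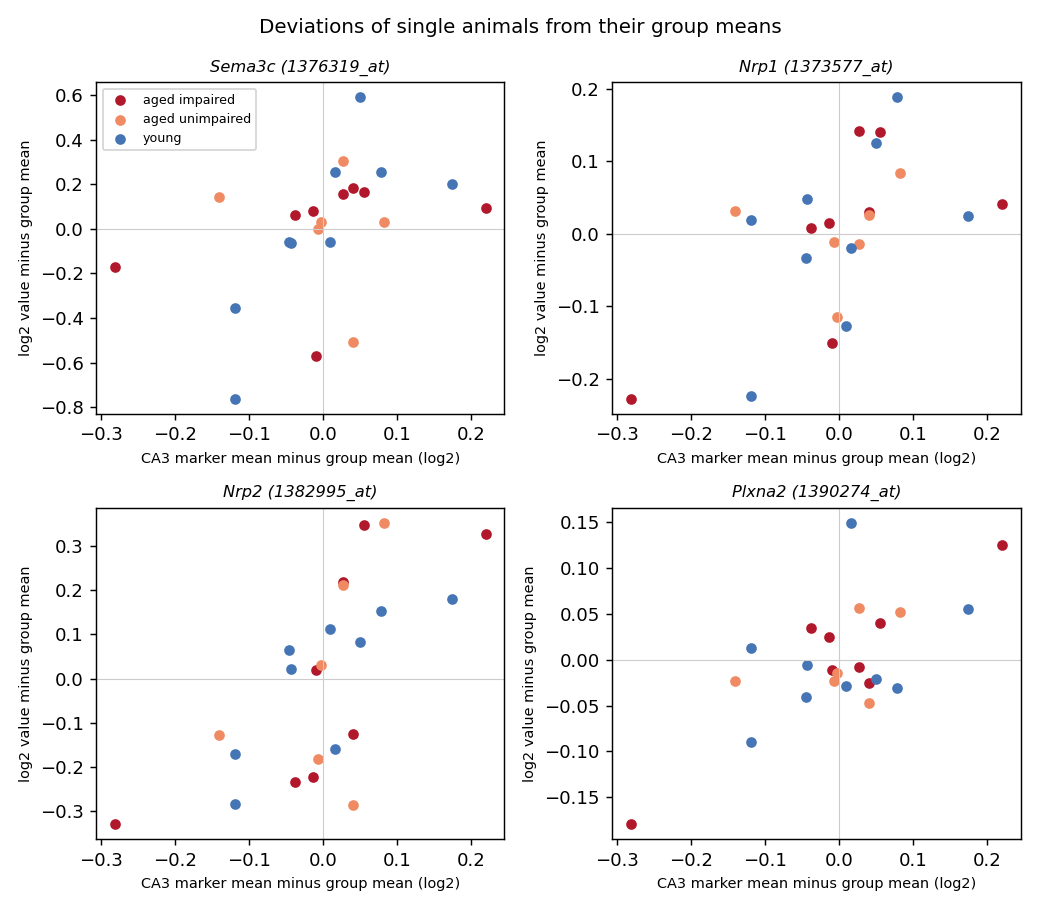
Deviation of each animal's log2 value from its group mean (vertical axis) against the deviation of its mean CA3 marker level from the group mean (horizontal axis, log2), for Sema3c, Nrp1, Nrp2 and Plxna2. Points are the 23 animals in the colours of their groups. Nrp2 shows a common slope, with r = 0.68 over all deviations, while the r of Plxna2 was 0.69 with and 0.36 without the 2 aged impaired rats at the ends.

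The profiles most like those of the measured members are given by Pearson's r over the 23 arrays, for the brightest probe set of each gene, as a description. Part of such an r comes from the shared group differences, so r of the deviations from group means follows in each sentence. For Sema3c these were D430041D05Rikl (r = 0.93, within groups 0.79), Nr4a3, a nuclear receptor induced by activity (0.87 and 0.68), and Trib2, a pseudokinase (0.85 and 0.57). For Nrp1 the closest profile was that of the plexin gene Plxna1 (0.84 and 0.76), followed by Prkag2, a subunit of AMP-activated kinase (0.82 and 0.71), and Pim2, a kinase (0.81 and 0.65). For Nrp2 they were Napb (0.81 and 0.79), Cyb561d2 (0.80 and 0.75) and Clmp (0.79 and 0.78).

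For Sema3e the closest were the sodium channel subunit Scn3b (0.78 and 0.75), the Ras activator Sos1 (0.78 and 0.77) and the formin Daam1 (0.78 and 0.75). For Plxna2 they were the lipid transporter Abca3 (0.83 and 0.78), Gdap2 (0.82 and 0.73) and Tmem121b (0.82 and 0.74). For Plxna4 they were the metalloproteinase Mmp24 (0.84 and 0.74), the postsynaptic scaffold Homer1 (0.81 and 0.74) and Ube2k, a ubiquitin-conjugating enzyme (0.80 and 0.67). Among the members themselves, Sema3c and Nrp1 (1373577_at) had r = 0.74 over the 23 arrays and 0.62 within groups, and the 2 probe sets of Plxna4 had 0.00 and 0.14.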

How the data were processed

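The authors deposited log2 values computed with GCRMA, per the submitters' processing notes, which name no version. GCRMA adjusts background, brings arrays to a common distribution and collapses dim probe sets onto a floor, which compresses differences there. Arrays give no read depth, and the number of animals limits precision. Array medians lay between 3.39 and 3.46, no 2 arrays were identical, and 57 control probe sets were left out.

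Symbols came from the platform's annotation, and the 226 probe sets on the lists used here all matched a current rat gene by identifier. With limma 3.58.1 (R 4.3.3), a mean for each group was fitted over the 23 arrays, and moderated two-sided tests were adjusted by Benjamini-Hochberg over 14647 probe sets. The fit was tested on simulated data. Relations with marker lists used 100000 permutations. The members and lists were chosen with earlier results of these data known. Genes outside the members were named where a probe set was called, as the 3 likest profiles by r, or as markers. Sema3f, Sema6a, Sema6b and Plxnd1 were named as ligands or a receptor of the members' proteins, though none was called. Alternatives changed the filter, scaling, floor, weights, prior, samples and covariates.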

Additional observations from a re-analysis of the deposited data

Results flagged for a closer look

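In 27 sets of values (9 tested probe sets in 3 groups), the highest or lowest animal was compared with its nearest neighbour by Dixon's ratio, which flags about 1 set in 20 by chance. It singled out 7. For Sema3c, aged impaired 3 was lowest at 6.34, with the next animal at 6.74, and aged unimpaired 7 was lowest at 6.67, with the next at 7.18. Without aged unimpaired 7 the Sema3c difference against young rats was -0.57 and its call ended. Young 7 was highest for Nrp1 (1370570_at) at 9.45. Aged impaired 4 was lowest for Plxna4 (1377678_at) at 8.07. Young 2 was highest for the second Plxna4 probe set (1397668_at) at 8.12 and for Plxna2 (1392157_at) at 5.87, where aged unimpaired 7 was also highest in its group at 5.40. Plxna2 (1392157_at) had the same value on 11 of 23 arrays, and the Plxna4 probe sets on 6 (1397668_at) and 5 (1377678_at). The rate of 1 in 20 need not hold for such repeated values.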

How the results depend on the processing

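All called differences of the 7 genes kept their sign in every alternative. Called were 1429 probe sets in aged impaired against young rats, 302 in aged unimpaired against young rats and 114 between the aged groups. Without a filter these were 768, 126 and 2, with the replicate number as a replicate block 870, 86 and 0, and with the gap between control rows as a covariate 937 and 0 in the first and last. With array weights the second and the third were 672 and 222, the third was 180 with quantile normalization and 0 with only the 2 groups compared, and without aged impaired 2 and young 4 (chosen after seeing the data) the first and the third were 859 and 12. Leaving out 1 animal gave 1017 to 1808, 175 to 382 and 2 to 447. The pathway lists had 4, 2 and 0 calls. They had 2 in the first with the control-row gap and 1 without aged impaired 2 and young 4. In the second they had 1 without a filter, 5 with array weights and 0 with the replicate block. In the third they had 1 with quantile normalization and 1 with array weights. Leaving out 1 animal gave 1 to 8, 1 to 3 and 0 to 2. The 7 genes had 3, 1 and 0 calls. They had 1 in the first with quantile normalization or the control-row gap, and 0 in the second without a filter, with only the 2 groups compared, with the replicate block and without aged impaired 2 and young 4. Leaving out 1 animal gave 2 to 4, 0 to 1 and 0 to 0. The causes were not tested, except that no filter raises the number of tests to 31042. Of 20 pairs of same-numbered animals of different groups, 2 had deviations correlated above 0.1 over the tested probe sets (median -0.01). Whether the number marks anything that these animals share was not tested. A dim probe set on the floor limits what can be said of Sema3a, and the number of animals limits differences near 0.1.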
